A study of Bos taurus with 17 samples.

Results

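Mitochondrial ribosomal protein genes are the nuclear genes, named MRPL and MRPS, for the protein part of the ribosome that works inside mitochondria. All rows of the expression table whose gene symbol begins with MRPL or MRPS followed by a digit were taken, which gave 76 of the 12894 genes listed. They comprised 49 proteins of the large subunit, 26 of the small subunit and MRPS36, which carries the name but is a component of the 2-oxoglutarate dehydrogenase complex. MRPS18A and MRPS30 were counted with the large subunit, where structural work places their proteins. Of the ribosomal members, 44 have a counterpart in the bacterial ribosome and 31 are found only in mitochondria.

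The mitochondrial ribosome translates the few messages that mitochondrial DNA encodes, all of them for core subunits of the respiratory chain and of ATP synthase. Its RNAs are transcribed inside the organelle, while its proteins are made in the cytosol and imported, so the subunits can only be assembled when both genomes are expressed. The small subunit holds the message and decodes it, and the large subunit joins amino acids and passes the new chain to the inner membrane. Muscle differentiation is generally accompanied by changes in mitochondrial content, and inherited defects of members such as MRPS16, MRPS22, MRPL3 or MRPL44 cause combined respiratory chain deficiencies in people.

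The study cultured bovine mesenchymal stem cells from the umbilical cord and followed them toward muscle on plastic and on scaffolds made from cellulose. Messages were counted from their 3′ ends by MARS-seq, so that each read stands for a transcript end and not for transcript length. Cells on plastic were sampled untreated at day 0 (3 libraries), and at day 3 (3 libraries) and day 21 (2 libraries) of culture in a myogenic medium with VEGF, IGF, FGF, dexamethasone and ascorbate-2-phosphate. At day 21 the scaffold groups were the smart scaffold (3 libraries), which carried the growth factors on its surface with none of them in the medium, and the media scaffold (4 libraries), which had the same medium as the plastic plates. The design text calls the libraries biological replicates and names no donors or animals, so their separate origin rests on that wording. Day 0 cells on scaffold were not analysed here, and a contrast of a day 21 scaffold with day 0 on plastic therefore changes time, medium and substrate together.

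The 15 libraries held between 2197356 and 15483745 reads assigned to genes. The plastic libraries of day 21 held 5264578 and 2197356 reads, and a member had a median of 136.5 reads per library there, the lowest of the 5 groups, against 1178 at day 0. Of the 9 mesenchymal stem cell markers used, of 10 listed, THY1, VIM, ITGB1, CD44 and ENG were present in every library. Their levels were not steady: on plastic at day 21 relative to day 0, THY1 (log2 change 5.49) and ENG (2.35) rose and CD44 (−2.09) fell. MCAM was at 0 in both plastic libraries of day 21 and averaged at most 3.36 normalized reads elsewhere. The sum of 5 skeletal muscle markers, of 11 listed, was at 10691 to 11315 normalized reads on the smart scaffold, 10869 to 12162 on the media scaffold and 11916 to 14405 on plastic at day 21, almost all of it from desmin (DES), against 947 to 1033 at day 0. Myosin heavy chain MYH3 averaged at most 4.13 normalized reads in any group. TNNT3, another of these markers, separated the groups of day 21. It rose on plastic at day 21 relative to day 0 (log2 change 5.837). Relative to plastic at day 21 it was lower on the smart scaffold (−5.835) and on the media scaffold (−5.523). The sum of 3 immune markers (CD14, LAPTM5 and CD68), of 8 listed, was 8.25 to 10.3 on the smart scaffold, 6.48 to 12.9 on the media scaffold and 89.7 to 113 on plastic at day 21, against 16.0 to 22.5 at day 0. The sum of 3 endothelial markers, of 8 listed, was 134 to 155 on the smart scaffold, 108 to 118 on the media scaffold and 66.2 to 99.7 on plastic at day 21, against 27.7 to 28.4 at day 0, and that of 2 epithelial markers, of 8 listed, did not exceed 6.93 in any library.

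All values below are normalized reads, that is, reads divided by a size factor of the library. Changes are differences in log2(value + 1) from limma, with p-values adjusted by Benjamini and Hochberg over 10960 tested genes. A gene is said to have risen or fallen where the adjusted p was under 0.05 and the log2 change was at least 1 in size. Of the 76 members, 74 passed the filter for testing, and MRPL33 and MRPS18B did not. In the reference annotation 22 of the members overlap another gene. The sources used here do not give whether counting used strand, so how reads from a shared stretch were assigned is not known. Only some of these overlaps are named below, so a member given without one may still overlap another gene.

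The summed level of the members was highest at day 0 and lowest on plastic at day 21. On plastic the sum was 54392, 53451 and 52643 normalized reads at day 0, 45002, 50137 and 44686 at day 3, and 32140 and 32476 at day 21. At day 21 it was 34992, 35775 and 36982 on the smart scaffold, 34394, 34934, 34352 and 34913 on the media scaffold, and 32140 and 32476 on plastic. No library of day 21 reached the lowest library of day 3, and the 3 groups of day 21 did not overlap either. The day 21 mean was 67.1% of the day 0 mean on the smart scaffold, 64.8% on the media scaffold and 60.4% on plastic. As a share of all normalized reads, the members took, on a per-million scale, 4912 to 4993 on the smart scaffold, 4709 to 4746 on the media scaffold and 4301 to 4424 on plastic at day 21, against 8613 to 8796 at day 0. In bulk RNA, fewer cells of a kind and less message per cell cannot be told apart.

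Both subunits moved by similar amounts. On plastic at day 21 the large subunit sum was 61.7% and the small subunit sum 57.9% of day 0. The ratio of large to small subunit messages was 2.23 to 2.31 on the smart scaffold, 2.20 to 2.27 on the media scaffold, and 2.25 and 2.33 on plastic at day 21, against 2.12 to 2.16 at day 0. The ratio in every day 21 library lay above that of every day 0 library, by a small margin.

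**Figure D1:**
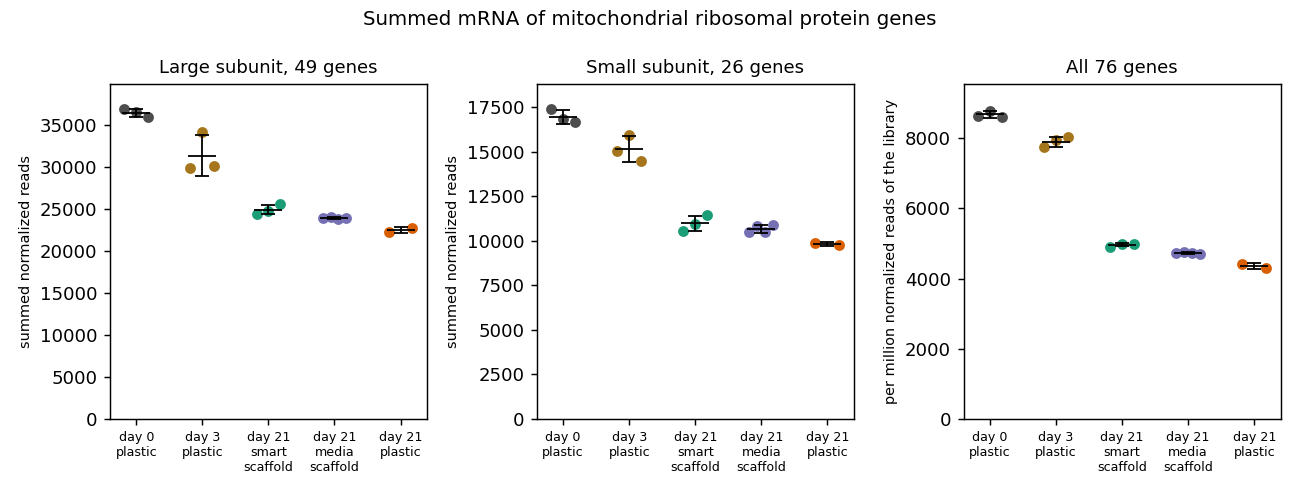
Summed normalized reads of the large subunit genes (left) and the small subunit genes (middle), and reads of all members on a per-million scale of the library (right), for each library (points) with the group mean and SD (black). Day 0 stands highest and plastic at day 21 lowest in all 3 panels, and the 3 groups of day 21 lie close together.

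By day 3 on plastic few members had changed far. MRPL15 and MRPL42 fell and none rose: 2 of 74 members fell, against 3.73% of all tested genes, and 0 of 74 rose, against 6.27% of all tested genes. At an adjusted p under 0.05 without a limit on size, 22 members were lower (15.3% of all tested genes) and 2 were higher (16.5%). The median change of the members was −0.27, against −0.02 over all tested genes. With edgeR and with DESeq2 on recovered reads the members past both limits were also 0 higher and 2 lower, and 2 members were higher at an unadjusted p under 0.05 in limma. Both falls lay close to the limit of size, since rescaling the libraries to the same total left 0 members past it. Leaving out day 0 replicate 2 or day 3 replicate 2 left MRPL15 alone, and leaving out day 3 replicate 1 left MRPL42 alone. In the same contrast the immune marker sum was 17.9 to 50.5 normalized reads at day 3, against 16.0 to 22.5 at day 0, and the endothelial marker sum was 41.1 to 78.8, against 27.7 to 28.4. CD14 (log2 change 2.78), LAPTM5 (1.69) and VWF (1.79) rose, and the part of these cell types in the values of the members was not tested.

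MRPL15 (ENSBTAG00000001174), counterpart of a bacterial protein that folds the large subunit RNA, stood at 233, 308 and 264 normalized reads at day 3, against 583, 566 and 527 at day 0. Every day 3 library was below every day 0 library, with a log2 change of −1.06 (SE 0.13, adjusted p = 8.68e-06). MRPL42 (ENSBTAG00000002708), a mitochondria-specific large subunit protein, stood at 87.6, 56.3 and 80.3 at day 3, against 162, 167 and 132 at day 0, a log2 change of −1.05 (SE 0.20, adjusted p = 0.000581). The members that were higher at day 3 without reaching the limit of size were MRPS6 and MRPL41. MRPS6 (ENSBTAG00000012594), a protein of the small subunit platform, was at 1774, 1289 and 1284 normalized reads at day 3, against 849, 871 and 878 at day 0, with a log2 change of 0.72 (SE 0.15, adjusted p = 0.00123). MRPS6 overlaps the transporter gene SLC5A3, for which no value is used here. MRPL41 had a log2 change of 0.32 (SE 0.12, adjusted p = 0.0445).

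By day 21 on plastic 32 of 74 members had fallen relative to day 0 and none had risen. Over all tested genes 24.1% fell and 21.2% rose. At an adjusted p under 0.05 alone, 60 members were lower (36.3% of all tested genes) and 1 was higher (33.4%). The median change was −0.80 for the members and −0.06 for all tested genes. A negative change was seen in 71 of the 74 members and in 5653 of the 10960 tested genes. By subunit, 21 of 48 tested large subunit members and 10 of 25 tested small subunit members fell, as did MRPS36. EdgeR called 34 falls, all 32 of these among them, and DESeq2 called 30, without MRPL20 and MRPL43. No member rose with edgeR or DESeq2, and 1 was higher at an unadjusted p under 0.05 with each of the 3 tools. Relative to day 3, 21 members fell (19.4% of all tested genes) and 0 rose (15.5%), with a median change of −0.62, against −0.04 for all tested genes. At an adjusted p under 0.05 alone, 51 were lower (32.8%) and 1 was higher (29.4%). Here 2 members were higher at an unadjusted p under 0.05 in limma, and edgeR and DESeq2 called 0 higher, with 20 and 19 lower. Rescaling to the same total moved that count of falls to 34 and the median of all tested genes to −0.36.

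**Figure D2:**
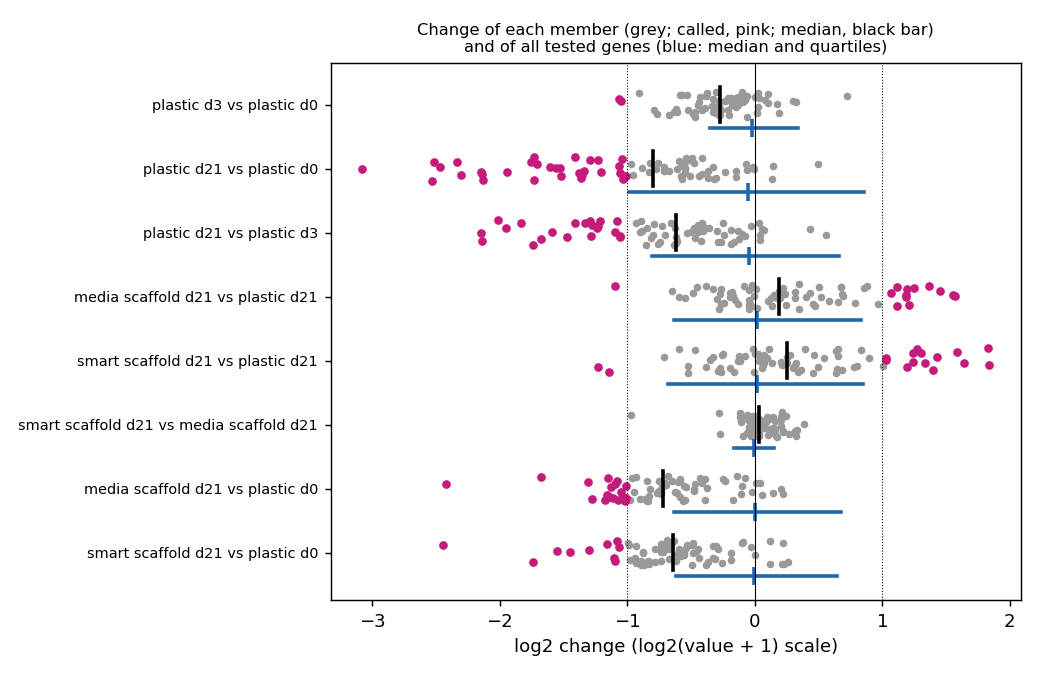
Log2 change of each of the 74 tested members (points; pink where past both limits) in the 8 comparisons, with the median of the members (black bar) and the median and quartiles of all tested genes (blue). In contrasts of day 21 with day 0 or day 3 most members lie to the left of the blue median. In the contrasts of scaffold with plastic at day 21 the members spread on both sides, with the called members mostly to the right.

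Among large subunit proteins with bacterial counterparts, MRPL15 had the deepest fall of all members. It stood at 64.9 and 65.3 normalized reads on plastic at day 21, against 583, 566 and 527 at day 0, a log2 change of −3.08 (SE 0.15, adjusted p = 9.2e-12). MRPL35 (ENSBTAG00000004823) was at 40.0 and 30.9 at day 21, against 213, 208 and 178 at day 0, a log2 change of −2.47 (SE 0.17, adjusted p = 1.08e-09). MRPL47 (ENSBTAG00000002462), which lies near the exit of the peptide tunnel, was at 69.0 and 82.5, against 347, 357 and 303 at day 0, a log2 change of −2.13 (SE 0.19, adjusted p = 2.92e-08). MRPL47 overlaps ACTL6A, a subunit of chromatin remodelling complexes, whose own change was −2.03; its part in the value of MRPL47 was not tested. MRPL19 (log2 change −1.71), MRPL9 (−1.52), MRPL32 (−1.36) and MRPL3 (−1.38), the last of them a protein near the catalytic centre, fell too. MRPL18, MRPL20, MRPL22, MRPL30 and MRPL12 fell with changes between −1.23 and −1.01, MRPL20 being the nearest to the limit. Leaving out single plastic libraries of day 21 kept between 28 and 29 of the 32 falls, with MRPL12, MRPL30 and MRPS16 under the limit without replicate 1, and MRPL20, MRPL32, MRPL43 and MRPL50 without replicate 2. Without day 0 replicate 1 MRPL30 was under the limit, and without day 0 replicate 2 MRPL20.

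The stalk of the large subunit, which recruits the translation factors, did not move as a block. MRPL12 (ENSBTAG00000000417), the stalk protein itself, which in human cells also binds the mitochondrial RNA polymerase, stood at 750.3, 711 and 739 normalized reads at day 0, 595, 853 and 589 at day 3 and 334 and 385 at day 21 on plastic. All of its day 21 values were below all earlier ones, with a log2 change from day 0 of −1.03 (SE 0.15, adjusted p = 1.3e-05). MRPL10, which anchors the stalk, stood at 505 and 292 at day 21, against 389.6, 388 and 388 at day 0, so that its 2 day 21 libraries lay on either side of the day 0 values (log2 change −0.016, SE 0.19, adjusted p = 0.946). MRPL11, at the stalk base, had a log2 change of −0.42 (SE 0.092, adjusted p = 0.000638), under the limit of size. MRPL53 and MRPL54, mitochondria-specific proteins near the stalk base, had changes of −1.29 (SE 0.14, adjusted p = 2.56e-07) and −0.71 (SE 0.14, adjusted p = 0.000282); MRPL53 fell and MRPL54 did not reach the limit.

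The central protuberance, the crown of the large subunit, also held members that fell and members that did not. MRPL48 (ENSBTAG00000008347) stood at 82.8 and 30.9 normalized reads on plastic at day 21, against 289.7, 299 and 295 at day 0, a log2 change of −2.51 (SE 0.27, adjusted p = 2.56e-07). MRPL46 (ENSBTAG00000019830) was at 388 and 460.5 at day 21, against 747, 646 and 685 at day 0, which did not reach the limit of size (log2 change −0.71, SE 0.14, adjusted p = 0.000236). MRPL38 had a log2 change of −0.37 (SE 0.15, adjusted p = 0.0366). MRPL40 (ENSBTAG00000019891) was at 584 and 808 at day 21, against 652, 616 and 598 at day 0, with no detectable difference (log2 change 0.14, SE 0.19, adjusted p = 0.513).

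The other mitochondria-specific members of the large subunit mostly moved down. MRPL39, which resembles part of a threonyl tRNA synthetase, was at 92.5 and 82.5 normalized reads at day 21, against 413, 473 and 425 at day 0, a log2 change of −2.31 (SE 0.15, adjusted p = 5.56e-10). MRPL42 was at 33.1 and 34.4 at day 21, against 162, 167 and 132 at day 0, a log2 change of −2.15 (SE 0.22, adjusted p = 1.48e-07). MRPL51 (log2 change −1.61), MRPL45 (−1.52), which holds the ribosome to the inner membrane, MRPL53 (−1.29), MRPL50 (−1.21) and MRPL43 (−1.07) also fell. MRPL51 overlaps VAMP1, whose change was 2.33, in the opposite direction. MRPL57 (ENSBTAG00000003315) was the member that was higher at an adjusted p under 0.05: 1645 and 2007 normalized reads at day 21, against 1342, 1322 and 1199 at day 0, a log2 change of 0.50 (SE 0.11, adjusted p = 0.000472), under the limit of size. Both day 21 libraries exceeded all 3 of day 0. ZDHHC20, which overlaps MRPL57, had a change of −1.14, in the opposite direction.

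In the small subunit the deepest falls were in proteins of the head, the domain that grips the message and the tRNAs. MRPS24 (ENSBTAG00000007398), at the entry of the message channel, stood at 219 and 124 normalized reads on plastic at day 21, against 1009.8, 935 and 935 at day 0, a log2 change of −2.53 (SE 0.18, adjusted p = 1.6e-09). MRPS7 (ENSBTAG00000016133) was at 249.8 and 117, against 854, 883 and 858 at day 0, a log2 change of −2.33 (SE 0.20, adjusted p = 1.26e-08). MRPS14 (ENSBTAG00000001109) was at 226 and 196, against 973, 925 and 899.6 at day 0, a log2 change of −2.14 (SE 0.10, adjusted p = 7.34e-12). MRPS7 overlaps MIF4GD, whose change was 0.11 (adjusted p = 0.403). MRPS24 overlaps LOC112443523, for which no value is used here. MRPS10, also of the head, fell with a log2 change of −1.41. Head proteins did not all fall: MRPS9 had a change of −0.55 (SE 0.20, adjusted p = 0.0231), under the limit of size.

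Away from the head, MRPS23 was at 208 and 186 normalized reads at day 21, against 821, 748 and 709 at day 0, a log2 change of −1.94 (SE 0.12, adjusted p = 1.71e-10). MRPS28, MRPS17, MRPS22, MRPS16 and the head protein MRPS35 fell with changes of −1.73, −1.56, −1.35, −1.04 and −1.75. MRPS12, the decoding centre protein, had a change of −0.51 (SE 0.12, adjusted p = 0.000837), and MRPS5, at the entry of the message channel, one of −0.58 (SE 0.14, adjusted p = 0.00151); neither reached the limit of size. MRPS6, higher at day 3, was at 1105 and 674 at day 21, against 849, 871 and 878 at day 0 (log2 change −0.005, SE 0.17, adjusted p = 0.982). MRPS21 varied little over time: 921, 974 and 954 normalized reads at day 0, 1042, 1152 and 884 at day 3, and 1018 and 1065 at day 21 on plastic.

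**Figure D3:**
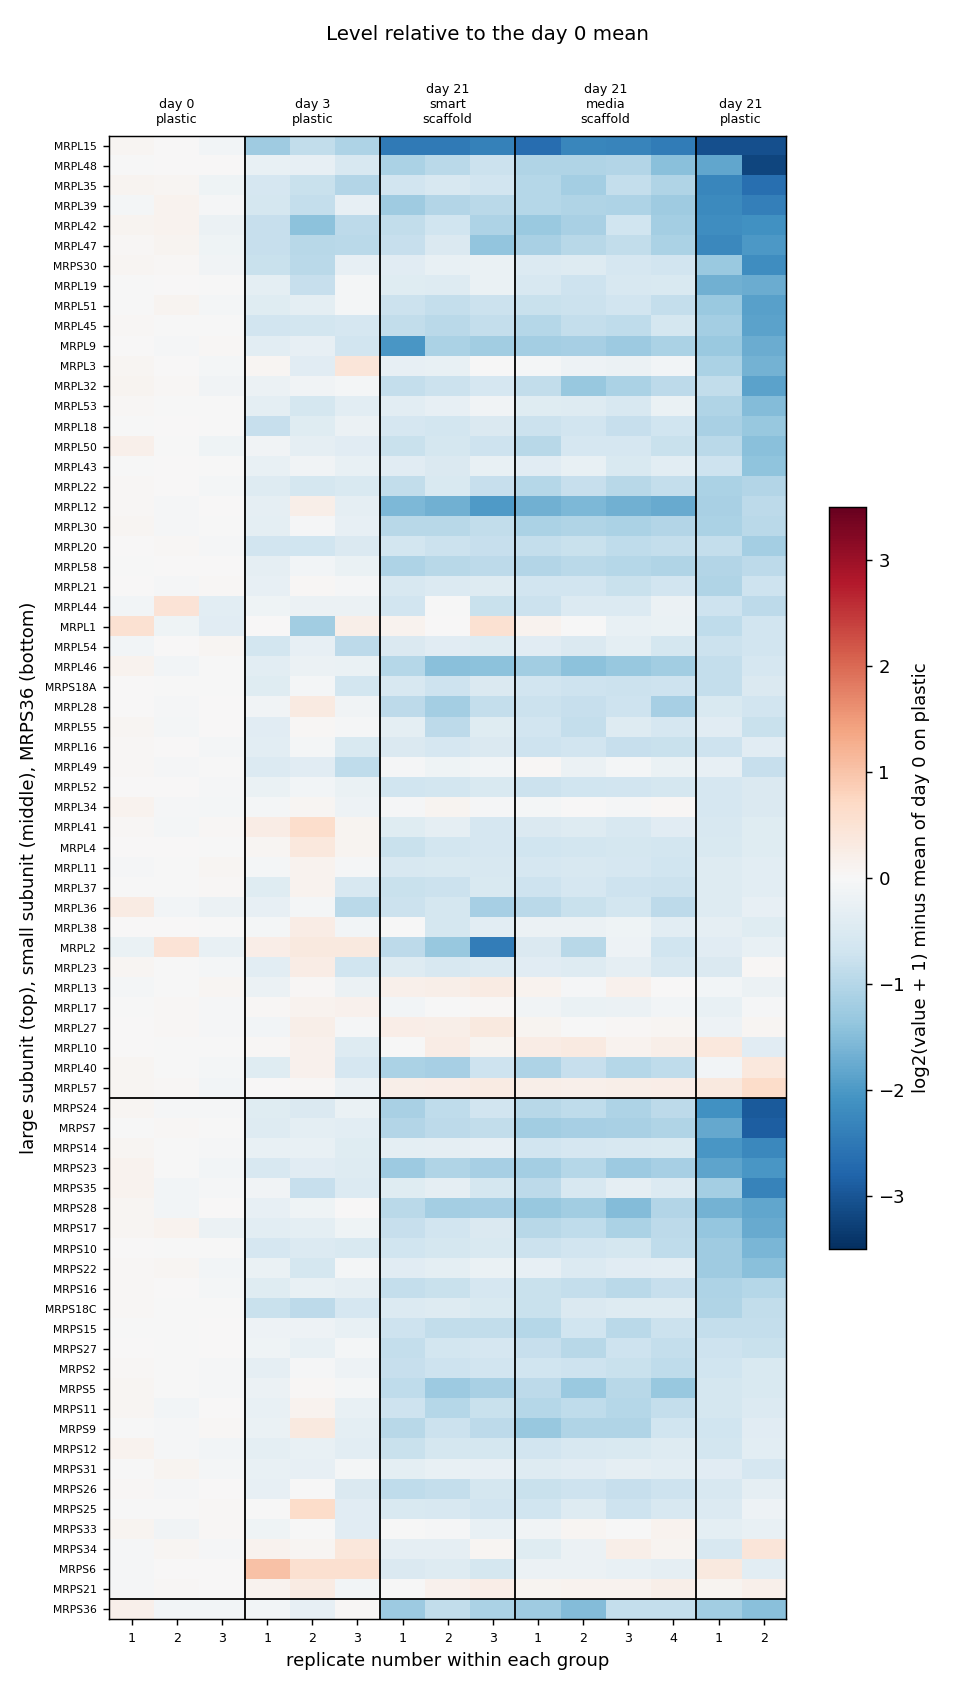
Log2(value + 1) of each tested member in each library, minus the mean of day 0 on plastic (blue lower, red higher), with large subunit members at the top, small subunit members in the middle and MRPS36 at the bottom, each sorted by the mean of plastic at day 21. The strongest blue is in the upper rows of each block under day 21 on plastic, where MRPL15 and MRPS24 stand, while the lowest rows of each block are near white or light red in most libraries.

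The MRPS18 genes encode 3 related proteins that sit at different places of the ribosome. MRPS18C, on the small subunit, stood at 38.6 and 44.7 normalized reads on plastic at day 21, against 83.0, 81.1 and 80.1 at day 0, a log2 change of −0.95 (SE 0.18, adjusted p = 0.000145). MRPS18A, on the large subunit, was at 302 and 385, against 554, 543 and 534 at day 0, a log2 change of −0.67 (SE 0.14, adjusted p = 0.000508). Both were lower at an adjusted p under 0.05 and neither reached the limit of size. MRPS18C overlaps ABRAXAS1, whose change was −0.545 (adjusted p = 0.00701). The part of ABRAXAS1 in the value of MRPS18C was not tested. MRPS18B was close to the floor of detection, with group means between 2.31 and 5.51 normalized reads and at most 11 reads in a library, and was not tested. MRPL33 was also sparse, with group means between 0.560 and 10.2 and at most 23 reads. MRPS30, a large subunit protein despite its name, fell on plastic to 164 and 89.3 at day 21, against 427, 418 and 371 at day 0 (log2 change −1.73, SE 0.21, adjusted p = 9.33e-07). MRPS36 fell to 69.0 and 58.4, against 185, 150.4 and 153 at day 0 (log2 change −1.34, SE 0.21, adjusted p = 2.41e-05).

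At day 21 the scaffolds and plastic differed in a limited number of members, mostly toward higher levels on the scaffolds. Between the smart scaffold and plastic, 14 of 74 members were higher (21.4% of all tested genes) and 2 were lower (16.0%). Between the media scaffold and plastic, 12 were higher (20.8% of all tested genes) and 1 was lower (14.6%). The shares of members past both limits were thus no larger than those of all tested genes. At an adjusted p under 0.05 alone, 34 were higher (32.8%) and 9 lower (31.1%) on the smart scaffold, and 28 higher (32.9%) and 8 lower (30.6%) on the media scaffold. The median change was 0.25 for the smart scaffold and 0.19 for the media scaffold, against 0.01 and 0.02 for all tested genes. Both contrasts share the 2 plastic libraries, so their lists are not independent of each other. The counts rested in part on the shallower plastic library: without plastic replicate 2, 7 members were higher on each scaffold and 0 were lower.

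MRPS14, MRPS24 and MRPL35 differed most. MRPS14 stood at 738, 755 and 757 normalized reads on the smart scaffold and 589, 616, 631 and 649.5 on the media scaffold, against 226 and 196 on plastic. Every scaffold library had a higher level than both plastic libraries, with log2 changes of 1.83 (SE 0.10, adjusted p = 1.76e-10) for the smart scaffold and 1.56 (SE 0.095, adjusted p = 6.56e-10) for the media scaffold. MRPS24 stood at 437, 519.7 and 608 on the smart scaffold and 489, 514, 451 and 512 on the media scaffold, against 219 and 124 on plastic. Its log2 changes were 1.64 (SE 0.18, adjusted p = 5.98e-07) and 1.57 (SE 0.17, adjusted p = 5.72e-07). MRPL35 stood at 125, 134 and 125 on the smart scaffold and 99.3, 87.6, 112 and 95.8 on the media scaffold, against 40.0 and 30.9 on plastic, with log2 changes of 1.84 (SE 0.17, adjusted p = 8.4e-08) and 1.46 (SE 0.16, adjusted p = 6.96e-07). For these 3 members the scaffold and plastic libraries did not overlap, and the calls held without either plastic library.

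MRPL48 stood at 137, 153 and 175 on the smart scaffold and 140.3, 142, 143 and 107 on the media scaffold, against 82.8 and 30.9 on plastic. The 2 plastic libraries were far apart, and the calls of MRPL48 (log2 changes 1.58 and 1.36) ended without plastic replicate 2. The same held on both scaffolds for MRPL3 (log2 changes 1.196 and 1.25), MRPS7 (1.40 and 1.19), MRPS30 (1.43 and 1.19) and MRPS35 (1.31 and 1.19), and on the smart scaffold for MRPL53 (1.03) and MRPS22 (1.03). The calls of MRPL53 and MRPS22 also ended without smart scaffold replicate 3 and with DESeq2, and that of MRPS22 with quantile normalization and with the replicate block. On the media scaffold the call of MRPS35 ended with edgeR and DESeq2, and that of MRPS7 with DESeq2. MRPL19, MRPL39, MRPL42 and MRPL47 were higher on both scaffolds, with changes between 1.24 and 1.33 on the smart scaffold and between 1.07 and 1.21 on the media scaffold. Of these, on the media scaffold MRPL47 did not keep its call without plastic replicate 1, MRPL42 did not without media scaffold replicate 3, and neither did with quantile normalization. ACTL6A, which overlaps MRPL47, had changes of 1.55 and 1.46, and MIF4GD, which overlaps MRPS7, of 0.53 and 0.68. The part of these overlaps in the values of MRPL47 and MRPS7 was not tested.

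A smaller set was lower on the scaffolds. MRPL40 stood at 289, 277 and 376 normalized reads on the smart scaffold and 294, 354, 308 and 333 on the media scaffold, against 584 and 808 on plastic, with log2 changes of −1.14 (SE 0.19, adjusted p = 5.48e-05) and −1.09 (SE 0.18, adjusted p = 5.02e-05). Both calls ended without plastic replicate 2. The gene HIRA, which overlaps MRPL40 and encodes a histone chaperone, had changes of −0.93 (adjusted p = 0.0282) and −1.03 (adjusted p = 0.0124), and its part in the value of MRPL40 was not tested. MRPL2, a core protein next to the catalytic centre, was at 8.25, 6.07 and 2.30 on the smart scaffold and 11.5, 7.96, 14.6 and 9.87 on the media scaffold, against 12.4 and 13.7 on plastic. Its log2 changes were −1.23 (SE 0.41, adjusted p = 0.0137) on the smart scaffold and −0.26 (SE 0.39, adjusted p = 0.567) on the media scaffold. At so few reads the call on the smart scaffold did not hold without plastic replicate 2, without smart scaffold replicate 3, or with edgeR and DESeq2. KLC4, which overlaps MRPL2, had changes of −0.104 (adjusted p = 0.694) and −0.146 (adjusted p = 0.553). The part of KLC4 in the value of MRPL2 was not tested.

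MRPL12 and MRPL46 were among the members lower on both scaffolds at an adjusted p under 0.05 without reaching the limit of size. MRPL12 stood at 246, 229 and 185 on the smart scaffold and 227, 244, 227 and 217 on the media scaffold, against 334 and 385 on plastic, with log2 changes of −0.71 (SE 0.15, adjusted p = 0.000662) and −0.65 (SE 0.15, adjusted p = 0.000959). MRPL46 stood at 345, 248 and 255 on the smart scaffold and 295, 254, 275 and 295 on the media scaffold, against 388 and 460.5 on plastic, with log2 changes of −0.59 (SE 0.14, adjusted p = 0.00137) and −0.60 (SE 0.13, adjusted p = 0.000871). In both genes every scaffold library was below both plastic libraries. MRPS5 (log2 changes −0.52 and −0.55), MRPS26 (−0.35 and −0.33) and MRPL57 (−0.27 and −0.29) also had adjusted p under 0.05 on both scaffolds. ZDHHC20, which overlaps MRPL57, had changes of 1.70 and 1.56, in the opposite direction.

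**Figure D4:**
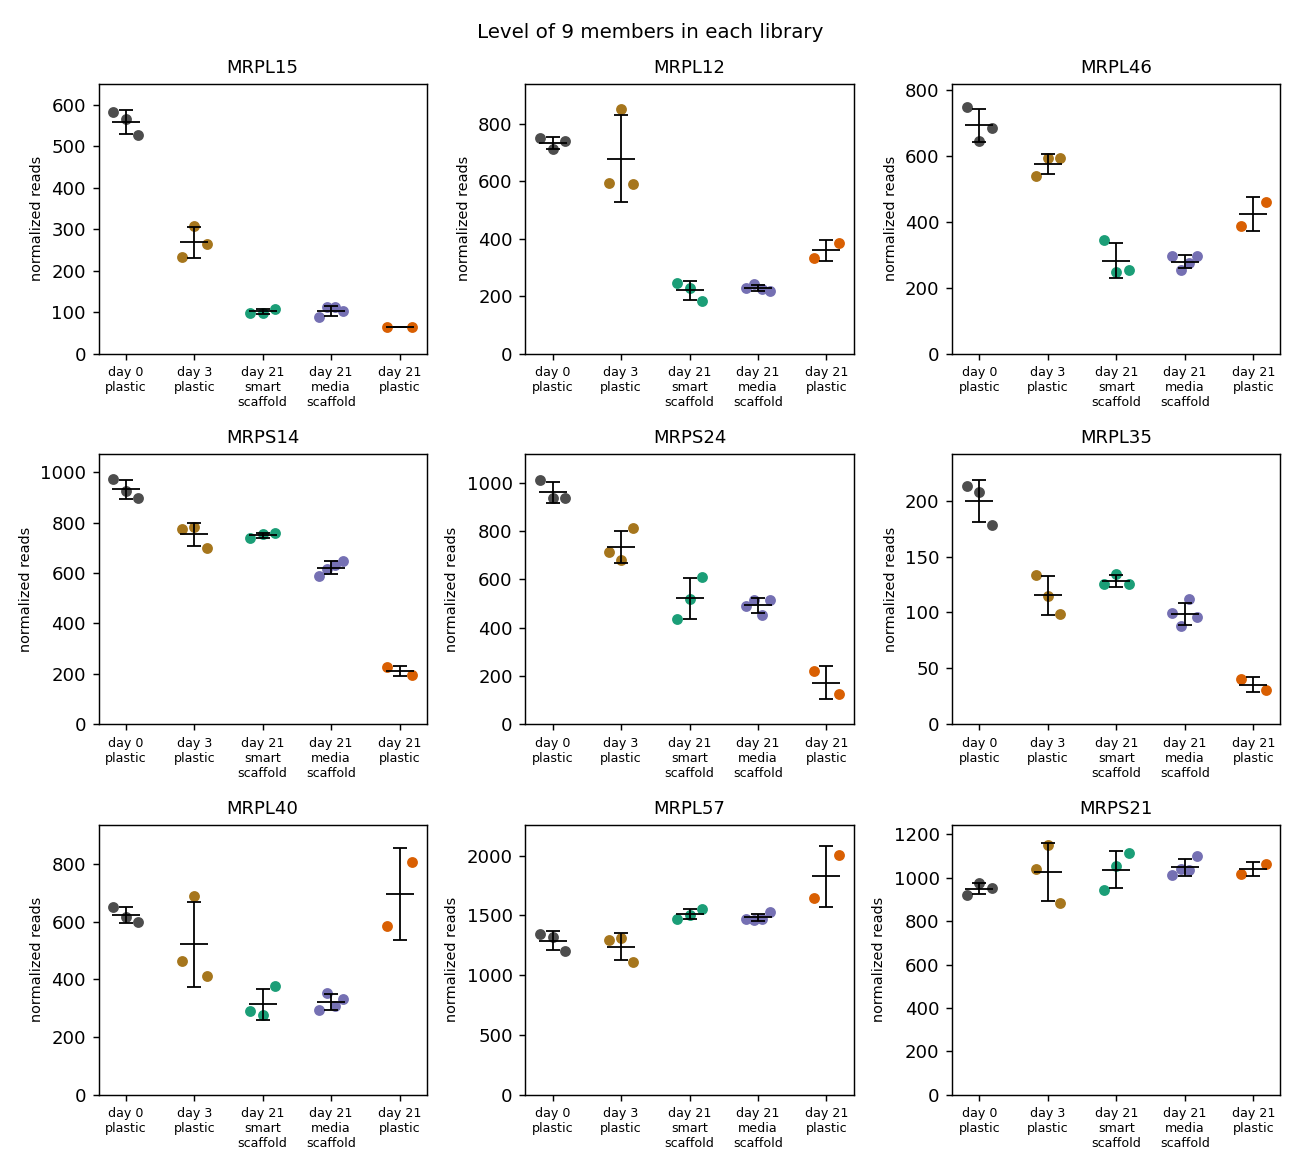
Normalized reads of 9 members in each library (points) with the group mean and SD (black; each vertical axis starts at 0). MRPS14, MRPS24 and MRPL35 have their lowest points on plastic at day 21, MRPL12 and MRPL46 have their lowest points on the scaffolds, the plastic libraries of day 21 are far apart for MRPL40, and MRPS21 is nearly level.

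Between the scaffolds no member differed past both limits. In the contrast of the smart with the media scaffold 0 of 74 members were higher (0.0730% of all tested genes) and 0 were lower (0.830%). With shares this small over all tested genes, 0 of 74 lay near them in both directions. At an adjusted p under 0.05 alone, limma also gave 0 higher (0.693% of all tested genes) and 0 lower (1.66%), and at an unadjusted p under 0.05 there were 5 higher (MRPL21, MRPL27, MRPL35, MRPS14 and MRPS17) and 1 lower (MRPL2). With edgeR the same counts were 5 and 1, and with DESeq2 5 and 1, with 1 of them, MRPS14, at an adjusted p under 0.05 and below the limit of size. The smallest adjusted p in limma was 0.116, for MRPS14, at 738, 755 and 757 normalized reads on the smart scaffold and 589, 616, 631 and 649.5 on the media scaffold (log2 change 0.27, SE 0.084). Its libraries did not overlap. For 72 of the 74 members the interval of 2 SE around the difference lay within a log2 change of 1 either way, and the exceptions were MRPL1 and MRPL2, both with few reads.

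Set against day 0 on plastic, both scaffolds at day 21 had lower levels of many members. These contrasts and those of plastic share the day 0 libraries. On the smart scaffold 10 of 74 members fell (14.1% of all tested genes) and 0 rose (16.5%). The share of members that fell there, 13.5%, was no larger than that of all tested genes. On the media scaffold 18 fell (14.9% of all tested genes) and 0 rose (17.5%). At an adjusted p under 0.05 alone, 58 were lower on each scaffold (29.9% of all tested genes for the smart scaffold and 30.9% for the media scaffold), and 2 were higher on the smart scaffold (30.8%) and 0 on the media scaffold (32.5%). The medians were −0.65 for the smart scaffold and −0.72 for the media scaffold, against −0.003 and 0.00 for all tested genes. With edgeR and DESeq2 0 members rose in either contrast, and at an unadjusted p under 0.05 limma gave 3 higher for the smart scaffold and 1 for the media scaffold. Rescaling to the same total moved the falls to 26 for the smart scaffold and 33 for the media scaffold, with all tested genes shifted to medians of −0.23 and −0.25.

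MRPL15 again had the deepest fall, at 99.0, 98.9 and 108 normalized reads on the smart scaffold and 87.8, 113, 112 and 102 on the media scaffold, against 583, 566 and 527 at day 0. Its log2 changes were −2.44 (SE 0.13, adjusted p = 4.3e-11) and −2.42 (SE 0.12, adjusted p = 1.32e-11). MRPL12 came next, at log2 changes of −1.74 (SE 0.14, adjusted p = 6.78e-09) for the smart scaffold and −1.68 (SE 0.13, adjusted p = 3.73e-09) for the media scaffold. Log2 changes of both scaffolds, the smart scaffold first, were past the limit for MRPL9 (−1.45 and −1.18), MRPL46 (−1.30 and −1.31), MRPS23 (−1.16 and −1.16), MRPS28 (−1.10 and −1.27), MRPS5 (−1.10 and −1.13), MRPL39 (−1.07 and −1.10) and MRPS36 (−1.08 and −1.11). Past the limit on the media scaffold alone were MRPL30 (−0.93 and −1.08), MRPL32 (−0.72 and −1.05), MRPL35 (−0.63 and −1.01), MRPL42 (−0.88 and −1.08), MRPL47 (−0.90 and −1.02), MRPL48 (−0.93 and −1.15), MRPL58 (−0.99 and −1.01), which releases stalled chains as a peptidyl-tRNA hydrolase, MRPS7 (−0.94 and −1.14) and MRPS9 (−0.87 and −1.03). None of these differed between the scaffolds in the test above. Several of these calls lay near the limit: that of MRPL35 ended with a pseudocount of 4 and without day 0 replicate 1, day 0 replicate 2 or media scaffold replicate 2. The call of MRPL47 ended with the replicate block and without day 0 replicate 1, day 0 replicate 2, media scaffold replicate 1 or media scaffold replicate 4. That of MRPL58 ended with the replicate block and without media scaffold replicate 4, that of MRPL32 without day 0 replicate 1 or media scaffold replicate 2, and that of MRPS9 without media scaffold replicate 1. Of the members past the limit on both scaffolds, MRPS36 lost its call on the media scaffold without media scaffold replicate 2, and on the smart scaffold without day 0 replicate 1 or smart scaffold replicate 1, the last of which also ended that of MRPL39. MRPL2 fell on the smart scaffold (−1.55) at few reads. MRPL3, MRPL34, MRPS33 and MRPS21 had changes between −0.19 and 0.12 on the smart scaffold. MRPL27, at 1456, 1414 and 1572 normalized reads on the smart scaffold, against 1238, 1265 and 1195 at day 0, was higher at an adjusted p under 0.05 without reaching the limit of size (log2 change 0.26, SE 0.095, adjusted p = 0.0238).

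Seen over all 5 groups, 55 of the 74 tested members (74.3%) had their highest group mean at day 0, as did 25.4% of all tested genes. The lowest group mean fell on plastic at day 21 for 42 members (56.8%, and 33.0% of all tested genes). It fell on the media scaffold for 17 members (23.0%, and 14.4% of all tested genes). On the smart scaffold it fell for 11 members (14.9%, and 16.3% of all tested genes). The spread between libraries of a group was smallest at day 0, with a median coefficient of variation of 3.88%, and was 11.6% at day 3 and 11.6% on plastic at day 21. It was 8.24% on the smart scaffold and 6.93% on the media scaffold. Counting of reads alone would give medians of 2.94% at day 0, 4.61% at day 3 and 8.14% on plastic at day 21. For the smart scaffold that value was 5.51%, and for the media scaffold 4.92%.

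Genes that work with the mitochondrial ribosome were followed in the same contrasts. On plastic at day 21 relative to day 0, 24.1% of all tested genes fell and 21.2% rose, with a median of −0.06, and the counts of each list stand against these shares. On plastic at day 21 relative to day 0, 10 of 20 tested genes for the expression and upkeep of mitochondrial DNA fell and 0 rose, with a median of −1.08. Examples were PNPT1, the mitochondrial polynucleotide phosphorylase (log2 change −2.86, SE 0.33, adjusted p = 6.99e-07), and TFB2M, a factor of mitochondrial transcription initiation (log2 change −2.67, SE 0.24, adjusted p = 3.8e-08). Of 5 tested ribosomal proteins that carry other names 2 fell and 0 rose, among them PTCD3 (log2 change −1.21, SE 0.14, adjusted p = 5.21e-07), a small subunit protein. Of 23 tested assembly factors and RNA modifying enzymes 6 fell, C1QBP the most (log2 change −2.31, SE 0.11, adjusted p = 8.58e-12), and NGRN rose (log2 change 1.62, SE 0.095, adjusted p = 1.3e-10). Of 23 translation factors and tRNA modifiers 6 fell, including LRPPRC (log2 change −2.11), which stabilises mitochondrial messages, and the elongation factor GFM1 (−1.94), while GTPBP3 rose (1.14). Of 14 mitochondrial tRNA synthetases 3 fell, including NARS2 (log2 change −4.11), and 0 rose. The shares of falls in the assembly, translation factor and synthetase lists lay near that of all tested genes. The regulators of mitochondrial biogenesis gave 1 fall, GABPB1 (log2 change −2.43, SE 0.38, adjusted p = 2.15e-05), and 1 rise, PPARGC1A (log2 change 1.21, SE 0.35, adjusted p = 0.00595), of 11 tested.

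General mitochondrial content and the respiratory chain were also followed. A list of mitochondrial content (import and outer membrane channels, carriers, chaperones, proteases, prohibitins, cristae proteins and citrate synthase) had 24 tested rows, with 2 for HSPD1, and 16 fell on plastic at day 21 relative to day 0 and 0 rose, with a median of −1.31, the carrier SLC25A5 (log2 change −3.39) and the import receptor TOMM20 (−2.96) falling most. Of 80 nuclear oxidative phosphorylation genes 20 fell and 4 rose, with a median of −0.24, a share of falls near the 24.1% of all tested genes. Among these, NDUFC1 of complex I fell (log2 change −2.29), and the tissue-restricted complex IV subunits COX7A1 (3.39) and COX4I2 (5.42) rose. The 82 tested rows of cytosolic ribosomal protein genes had a median of 0.075, with 9 falls and 1 rise. Rescaling to the same total lowered the median of all tested genes to −0.31 in this contrast and that of the mitochondrial ribosomal members to −1.06.

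On the scaffolds relative to plastic at day 21, the mitochondrial content list had 10 of 24 rows higher and 0 lower on each scaffold. Of all tested genes 21.4% were higher and 16.0% lower on the smart scaffold, and 20.8% higher and 14.6% lower on the media scaffold. TOMM70 (log2 change 2.11 on the smart scaffold and 2.14 on the media scaffold) and citrate synthase (CS; 1.81 and 1.78) differed most. Of the 80 oxidative phosphorylation genes 15 were higher and 1 lower on the smart scaffold, and 12 higher and 0 lower on the media scaffold, shares below those of all tested genes in both directions. Among translation factors GFM1 was higher (log2 change 1.73 and 1.66) and GTPBP3 lower (−1.97 and −2.00). The assembly list gave 2 higher and 2 lower on the smart scaffold and 3 higher and 3 lower on the media scaffold, and the ribosomal proteins with other names gave none in either direction, of 5 tested. Between the scaffolds COX4I2 (log2 change −2.73) and NDUFA4L2 (−2.06) were lower on the smart scaffold, and no gene of the ribosome, assembly, translation, synthetase, mitochondrial DNA, regulator or content lists was past both limits.

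Cell division genes were lower at day 21 than at day 0, as most members were. All 24 listed genes fell on plastic at day 21 relative to day 0, with a median of −3.97, and all 24 fell on each scaffold, against 24.1% of all tested genes on plastic, 14.1% on the smart scaffold and 14.9% on the media scaffold. MKI67, a marker of cycling cells, averaged 68.3 normalized reads on the smart scaffold, 85.8 on the media scaffold and 22.0 on plastic at day 21, against 1605 at day 0. At day 21, 6 of the 24 were higher on the smart scaffold than on plastic, against 21.4% of all tested genes, a share near it. On the media scaffold 8 of the 24 were higher than on plastic, against 20.8% of all tested genes. On either scaffold 0 were lower, against 16.0% of all tested genes on the smart scaffold and 14.6% on the media scaffold. On the smart relative to the media scaffold the median was −0.124 for the cell division genes and 0.036 for the ribosomal members. No gene of either set was past both limits there. The part of cell division in the levels of the ribosomal members was not tested. The immune marker sum given above was lower on the scaffolds than on plastic at day 21, and its part was not tested either.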

How the data were processed

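The deposited table holds normalized read signal per gene; per the submitters' processing notes, cutadapt, STAR, HTSeq and DESeq were used with the ARS-UCD1.2 genome, with versions not given in the sources used here. Every value of the 15 libraries was a whole number of reads (within 0.1) times a fixed step, from which reads were recovered. Column names were matched to sample titles, and 2 value columns that match none were not used. The members and gene lists were chosen with earlier results of these data known.

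R 4.3.3 with limma 3.58.1 (trend and robust settings) was fitted to log2(value + 1) over all 15 libraries, with 1 mean per group and no replicate block. Genes with a mean of at least 5 were tested (10960, with 1934 left out); tests were two-sided, with Benjamini-Hochberg adjustment over all tested genes. P-values measure the spread between these libraries. A fold change on this scale understates the change of low genes. The fit was tested on simulated data. Alternatives were pseudocounts of 0.5 and 4, no filter or a higher one (mean of 20), equal library totals, quantile normalization, fitting the compared groups alone, a replicate block, leaving out each library, and edgeR 4.0.16 and DESeq2 1.42.0 on the recovered reads.

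Members were picked for naming by rule. In each comparison these were the 10 largest rises and 10 largest falls among called members whose libraries did not overlap. MRPL12, MRPS18A, MRPS18B, MRPS18C, MRPS30 and MRPS36 were added, and of each companion list up to 2 called genes each way. Not every picked member is given in every comparison, and no log2 change of a single member is given for plastic at day 21 relative to day 3. Other members named were chosen after their values were seen, for their place in the ribosome or an overlapping gene. All 76 members were matched to the RefSeq table of the assembly ARS-UCD2.0, used here for overlaps only, with no coordinates. Matching was by gene identifier, and by symbol where the identifier was not found.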

Additional observations from a re-analysis of the deposited data

Results flagged for a closer look

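MRPL48 in media scaffold replicate 4 stood apart from the other libraries of its group at 107 normalized reads, while the other 3 lay between 140.3 and 143, a gap of 0.918 of the range of the group. It was the only such value among 27 sums and named members checked in that group. By chance the rule flags about 1 in 20 items checked, so 1 flag among 27 is about what chance gives.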

How the results depend on the processing

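No called change of a named member changed direction under any alternative run. Rescaling to the same total gave 0 falls at day 3 relative to day 0, 34 on plastic at day 21 relative to day 3, and 26 on the smart scaffold and 33 on the media scaffold relative to day 0; it shifted the median of all tested genes and that of the members by nearly the same amount. Over all tested genes, rescaling moved the split of rises and falls to 1812 and 3276 (2320 and 2636 before) on plastic at day 21 relative to day 0, to 1148 and 3057 (1700 and 2124) relative to day 3, to 1420 and 2155 (1808 and 1546) on the smart scaffold relative to day 0, and to 1494 and 2271 (1913 and 1635) on the media scaffold relative to day 0. For the smart scaffold relative to plastic, 1 member was lower with a pseudocount of 4, with a minimum mean of 20, with the compared groups alone, with edgeR and with DESeq2, in place of 2; MRPL2 was the member lost, being left out by the higher filter, and for the others the cause was not tested. Leaving out single libraries gave 1 to 2 falls at day 3 relative to day 0, 7 to 18 higher and 0 to 2 lower on the smart scaffold relative to plastic, and 7 to 16 higher and 0 to 1 lower on the media scaffold; the groups are then smaller, and a lone plastic library is assumed to vary like the others. Over all tested genes, the smart against the media scaffold gave 8 higher and 91 lower (14 and 123 with the compared groups alone). Without single libraries there were 2 to 9 higher and 51 to 79 lower (2 and 51 without media scaffold replicate 2). The members stayed at 0 of 74 in both directions. That is near the shares of all tested genes in the main fit, 0.0730% higher and 0.830% lower. Other counts of members stayed within 1.5 times. Libraries with the same replicate number showed little shared deviation from their group means (correlations −0.074 to 0.157). With so few libraries in a group this cannot exclude a shared source, and the labels do not state one. With the replicate block the falls were 32 on plastic at day 21 relative to day 0. With it 13 members were higher on the smart scaffold relative to plastic (without MRPS22). On the media scaffold relative to day 0, 16 in place of 18 fell (without MRPL47 and MRPL58). The block ended no other call of a member. Depth limits MRPL1, MRPL2, MRPL33 and MRPS18B, and values of plastic at day 21.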
